A study of Homo sapiens with 12 samples.

Results

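The genes described here encode the alpha chains of collagens. The list holds 42 chain genes, found by symbol among 57820 gene identifiers in the counts of 12 RNA-seq libraries, and 23 of the 42 had enough reads to be tested among 16060 genes. By structure, 11 chains are fibrillar, 9 belong to basement membranes and 22 to other classes. The RNA came from TE10 and Kyse410, which are lines of human esophageal squamous carcinoma cells. In each line, cells stably infected to express an shRNA, a hairpin that silences UHRF1 (called shUHRF1 below), were compared with cells carrying a scramble control. There were 4 groups with 3 libraries each, made from polyadenylated RNA of infected cells, and uninfected cells were not analysed here. The labels state neither how many hairpin sequences were used nor that a group's 3 libraries were separate cultures, so the p-values measure only how these libraries vary, which may be technical variation.

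A collagen is a trimer of alpha chains wound into a triple helix, built on a repeat that begins with glycine. Fibrillar collagens (types I, II, III, V, XI, XXIV and XXVII) form the banded fibrils of connective tissue, type IV forms the sheet-like network of basement membranes, and type VII forms the anchoring fibrils that tie squamous epithelium to the tissue beneath. Types XV and XVIII sit at basement membrane zones and carry heparan or chondroitin sulfate chains. Among the other classes, type VI forms beaded microfilaments, types IX, XII, XVI and XXI attach to or sit near fibrils, and types XIII and XVII are transmembrane proteins, XVII being the hemidesmosomal collagen of basal keratinocytes. In squamous carcinomas much of the fibrillar collagen is made by stromal fibroblasts, while the tumour cells make types IV, VII and XVII. UHRF1 recognises DNA methylated on one strand and helps copy CG methylation after replication.

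Gene start regions were taken from RefSeq (build GRCh38.p14) as windows from 250 bases before to 50 bases after the start of transcription, and 31 of the 42 members had one. CG dinucleotides are printed in capitals. Methylation was not measured, so these windows describe the genes and not their state. The first 2 windows belong to pairs of type IV genes that lie head to head on opposite strands. The starts of COL4A1 and COL4A2 lie 127 bases apart and their windows share 226 bases, and the window of COL4A2 lies on the plus strand at chr13:110307034-110307333. The starts of COL4A5 and COL4A6 lie 380 bases apart with 121 shared bases, and the window of COL4A5 lies on the plus strand at chrX:108439588-108439887. The other windows belong to the member with the largest fall in either line, COL5A3 (minus strand, chr19:10010455-10010754), and to the members with the largest called rise in TE10 and in Kyse410, COL11A2 (minus strand, chr6:33193470-33193769) and COL21A1 (minus strand, chr6:56247531-56247830).
COL4A2: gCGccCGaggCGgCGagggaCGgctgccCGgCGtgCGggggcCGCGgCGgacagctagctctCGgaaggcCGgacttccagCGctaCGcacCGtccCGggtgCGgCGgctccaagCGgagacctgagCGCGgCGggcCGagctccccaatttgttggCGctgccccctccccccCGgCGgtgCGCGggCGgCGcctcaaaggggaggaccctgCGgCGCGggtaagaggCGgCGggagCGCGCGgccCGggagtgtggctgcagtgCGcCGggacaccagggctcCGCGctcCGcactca
COL4A5: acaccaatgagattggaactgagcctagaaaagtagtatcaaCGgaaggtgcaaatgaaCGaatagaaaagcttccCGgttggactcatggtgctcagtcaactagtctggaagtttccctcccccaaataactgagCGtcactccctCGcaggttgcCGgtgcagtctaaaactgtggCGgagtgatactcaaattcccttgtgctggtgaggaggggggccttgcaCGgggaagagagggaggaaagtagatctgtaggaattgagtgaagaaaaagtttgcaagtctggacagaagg
COL5A3: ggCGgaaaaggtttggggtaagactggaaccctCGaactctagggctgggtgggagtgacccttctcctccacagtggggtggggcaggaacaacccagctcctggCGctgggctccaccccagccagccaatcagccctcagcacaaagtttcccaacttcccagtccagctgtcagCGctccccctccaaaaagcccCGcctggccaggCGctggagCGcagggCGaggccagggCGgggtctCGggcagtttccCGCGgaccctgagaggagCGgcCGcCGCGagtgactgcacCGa
COL11A2: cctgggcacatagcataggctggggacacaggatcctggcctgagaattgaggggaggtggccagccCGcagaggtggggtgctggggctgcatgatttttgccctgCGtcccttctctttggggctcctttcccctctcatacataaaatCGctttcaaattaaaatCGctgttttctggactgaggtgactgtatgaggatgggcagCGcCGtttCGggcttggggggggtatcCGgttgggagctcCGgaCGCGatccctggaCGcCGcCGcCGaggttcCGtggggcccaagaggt
COL21A1: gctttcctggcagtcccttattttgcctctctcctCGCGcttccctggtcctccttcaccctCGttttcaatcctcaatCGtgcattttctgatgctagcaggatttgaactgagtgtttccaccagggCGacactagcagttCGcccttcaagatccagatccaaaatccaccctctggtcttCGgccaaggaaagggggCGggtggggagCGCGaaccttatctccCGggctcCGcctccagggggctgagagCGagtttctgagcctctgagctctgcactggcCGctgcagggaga

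The 2 head-to-head pairs differed in base composition. The windows of COL4A1 and COL4A2 each held 45 CG, against a median of 14 over 27305 windows of the same length (quartiles 3 and 28). Those of COL4A5 and COL4A6 held 8 and 7. COL5A3 held 17, COL11A2 16 and COL21A1 14. The GC box GGGCGG, searched on both strands, was found in 44.6% of all windows, among them those of COL4A1, COL4A2, COL5A3 and COL21A1 but not those of COL4A5, COL4A6 and COL11A2. Each match contains 1 of the CG counted above. The letters CCAAT, searched likewise, were found in 35.7% of all windows, among them those of COL4A1, COL4A2, COL4A5, COL4A6 and COL5A3. These matches are letters in a window and not shown to be binding sites.

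Between 7857662 and 12005229 reads per library were assigned to genes. UHRF1, the target of the hairpin, checked the labels. In TE10 its level was 173, 179 and 184 CPM (reads relative to the library total, scaled between libraries by TMM) in the scramble libraries and 82.1, 86.8 and 88.9 CPM with shUHRF1. In Kyse410 it was 101, 101 and 95.1 CPM in the scramble libraries and 42.1, 43.5 and 41.9 CPM with shUHRF1. Its log2 fold changes were −1.06 ± 0.0526 and −1.22 ± 0.0573 (SE). Of 8 squamous epithelial marker genes, all 8 were tested, and their summed level was 642 to 1246 CPM over the 12 libraries. The sum hides low members. In Kyse410 with the scramble, the keratins KRT5, KRT14 and KRT6A had means of only 1.14, 4.39 and 12.4 CPM. KRT17, TP63, CDH1, EPCAM and SFN stood there at 81.0, 97.5, 113, 146 and 198 CPM. In TE10 with the scramble, KRT5, KRT14 and KRT6A stood at 67.4, 55.2 and 372 CPM. The fibroblast markers DCN, LUM, THY1, FAP and PDGFRA and the endothelial markers VWF, TEK, KDR and CLDN5 were at or near 0. Other markers on these lists were read: at their highest group means, the fibroblast markers ACTA2 and PDGFRB stood at 24.8 ± 0.621 and 5.80 ± 0.473 CPM in Kyse410 with the scramble, and the endothelial cadherin CDH5 at 95.7 ± 7.63 CPM in Kyse410 with shUHRF1. Below, levels are means ± SD of 3 libraries, log2 fold changes carry their SE, and a gene is said to rise or fall where edgeR's quasi-likelihood test gave an adjusted p under 0.05 over all genes tested.

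Of the 42 collagen genes, 38 had at least 1 read and 23 were tested. The remaining 19 were 4 with no read in any library (COL9A1, COL14A1, COL19A1 and COL23A1), and 15 with at most 19 reads in a library. The untested genes included COL1A2, the partner chain of COL1A1 in type I collagen, with 2 reads over all 12 libraries, and COL3A1, the chain of type III, with 1 read. COL5A2, which joins COL5A1 in the common form of type V, had 93 reads in all. COL4A3 and COL4A4, the head-to-head pair of the kidney and lung type IV network, had 30 and 51. The other untested members were COL9A2 with 87 reads, COL26A1 with 59, COL2A1 with 18, COL10A1 with 15, COL20A1 with 11, COL24A1 with 8, COL8A1 with 4, COL22A1 with 3, and COL11A1 and COL25A1 with 1 each. Of the 23 tested members, 5 had under 50 reads in every library (COL6A3, COL8A2, COL11A2, COL21A1 and COL28A1). The tested members passed a filter on low counts in part through the group where they are highest, so the counts below describe these 23 and not the whole list.

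In the scramble controls, the collagen genes with the most reads per length were the same 4 in both lines. Levels between genes are compared here as CPM per kilobase of exon. COL5A1, a fibrillar chain of type V, stood first, at 63.3 ± 1.28 in TE10 and 79.9 ± 0.821 in Kyse410. COL17A1 came second, at 51.7 ± 0.467 and 53.8 ± 1.07. COL7A1 and COL6A1, a chain of type VI, followed at 33.2 ± 0.419 and 32.3 ± 0.558 in TE10 and at 32.9 ± 0.808 and 34.1 ± 1.51 in Kyse410, and in neither line did these neighbours differ beyond their spread. Below them lay the type IV chains, COL12A1 and COL18A1, between 9.91 for COL4A2 and 18.4 for COL4A6 in TE10 and between 12.1 for COL4A2 and 20.5 for COL18A1 in Kyse410. The order in this middle range depended on the length used. Per kilobase of the longest protein-coding transcript, a length chosen after the data were seen, COL4A2 moved from rank 10 to 5 in TE10 and from 10 to 6 in Kyse410, while COL18A1 moved from 7 to 10 and from 5 to 8. With that length COL5A1 and COL17A1 kept ranks 1 and 2 in both lines.

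**Figure D1:**
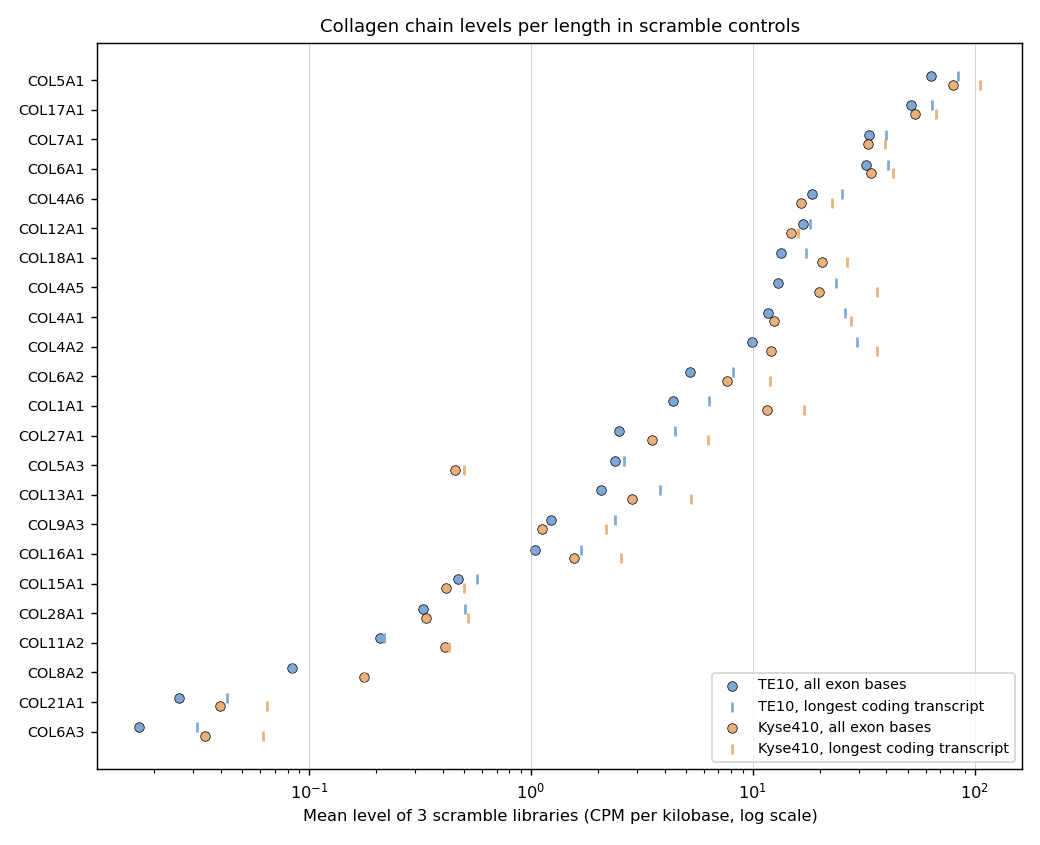
Mean level of each tested collagen chain gene in the 3 scramble libraries of TE10 (blue) and Kyse410 (orange), in CPM per kilobase on a log scale, with circles for the length of all exon bases and bars for the longest protein-coding transcript. COL5A1 and COL17A1 lie at the right in both lines, COL5A3 shows the widest gap between the lines, and COL4A2 and COL4A1 lie further right by transcript than by exon length.

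The same scramble libraries gave the comparison of the lines at baseline. Kyse410 was above TE10 in 10 of the 23 tested members, against 36.7% of all genes tested, and below it in 3, against 37.1% of all genes tested. COL1A1, the main chain of type I collagen, was read at 42.8 ± 0.865 CPM in TE10 and 114 ± 6.04 CPM in Kyse410, a log2 difference of 1.42 ± 0.062 (edgeR adjusted p = 6.92e-27). COL5A3, a less common chain of type V, went the other way, from 16.2 ± 1.5 to 3.07 ± 0.365 CPM (−2.39 ± 0.186). COL4A5 and COL18A1 were higher in Kyse410 by 0.62 ± 0.0427 and 0.61 ± 0.0523, COL16A1 by 0.60 ± 0.143, COL6A2 by 0.54 ± 0.0883, COL27A1 by 0.49 ± 0.0764, COL13A1 by 0.47 ± 0.126, COL5A1 by 0.34 ± 0.0344 and COL4A2 by 0.29 ± 0.0448 on the log2 scale. COL11A2 was higher by 0.93 ± 0.326, a call that ended without TE10 scramble replicate 2 (0.61, edgeR adjusted p = 0.104) and was 1.55 without TE10 scramble replicate 3. COL12A1 and COL4A6 were lower in Kyse410 by small amounts (−0.18 ± 0.0431 and −0.15 ± 0.0464), and both calls were lost when libraries were scaled by their totals alone (−0.08 and −0.06). COL7A1 and COL17A1 were at −0.01 ± 0.0392 and 0.06 ± 0.0375 and did not pass. These controls also enter the knockdown comparisons below, so the baseline difference and the response of a gene share libraries.

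With shUHRF1, TE10 cells had less RNA of most collagen genes that were tested. In TE10, 14 of the 23 fell, against 20.0% of all genes tested that fell, and 4 rose, against 18.8%. The median log2 fold change of the 23 was −0.71, beside 0.00 for all genes tested. All 42 members together took 0.268% of gene reads in TE10 with the scramble and 0.187% with shUHRF1. In bulk RNA, a smaller number of cells that express a gene and less of its RNA per cell cannot be told apart.

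Kyse410 showed falls in a similar number of members and more rises. There 13 of the 23 fell, against 26.7% of all genes tested, and 8 rose, against 22.6%. The median was −0.13, beside −0.03 for all genes tested. The share of gene reads was 0.334% with the scramble and 0.282% with shUHRF1. The response itself was tested for a difference between the lines. It was higher in Kyse410 than in TE10 (less of a fall, or a rise) for 11 of the 23, against 19.0% of all genes tested, and lower for 2, against 19.9%.

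**Figure D2:**
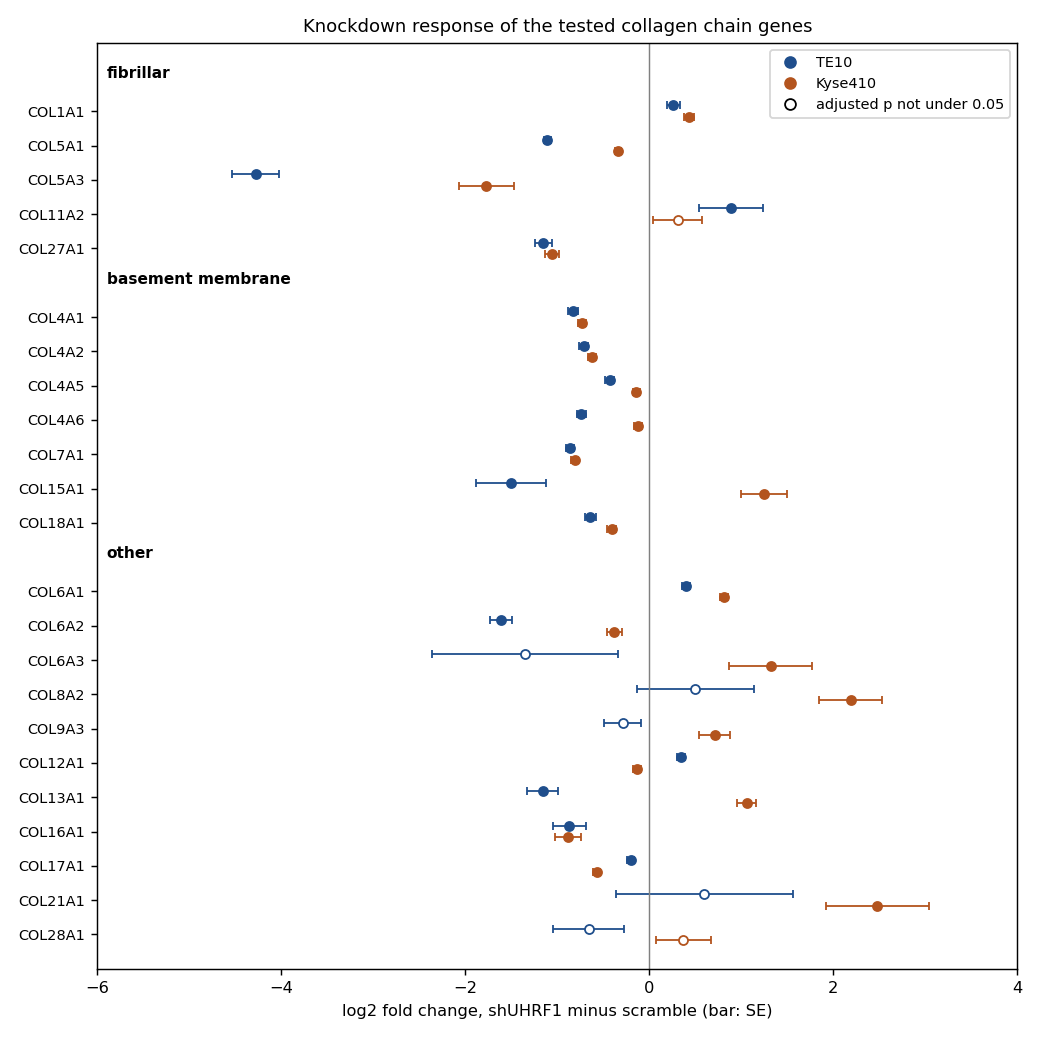
Log2 fold change of the 23 tested collagen chain genes, shUHRF1 minus scramble, in TE10 (blue) and Kyse410 (brown) with the SE as bars, grouped by structural class; open circles did not reach an adjusted p under 0.05. The 4 tested type IV genes and COL7A1 lie left of 0 in both lines, while COL15A1 and COL13A1 lie on opposite sides.

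By class, the falls were most regular among the basement membrane chains. All 7 tested members of that class (COL4A1, COL4A2, COL4A5, COL4A6, COL7A1, COL15A1 and COL18A1) fell in TE10, and 6 fell and 1 rose in Kyse410. Among these 6 was COL4A6, at −0.12 ± 0.0462, a call lost in several alternative runs given below. COL8A2, also found in some basement membranes, was counted under other classes. It was at 0.50 ± 0.634 in TE10, which did not pass, and rose in Kyse410 (2.19 ± 0.343). Of all genes tested, 20.0% fell and 18.8% rose in TE10, and 26.7% fell and 22.6% rose in Kyse410. Of 5 fibrillar members, 3 fell and 2 rose in TE10, and 3 fell and 1 rose in Kyse410. Of 11 members of other classes, 4 fell and 2 rose in TE10, and 4 fell and 6 rose in Kyse410. The summed level of the fibrillar chains went from 806 ± 12.9 to 400 ± 8.08 CPM in TE10 and from 1064 ± 15.5 to 889 ± 29.5 CPM in Kyse410. That of the basement membrane chains went from 1174 ± 6.08 to 709 ± 7.81 CPM and from 1350 ± 30.3 to 965 ± 39.6 CPM. For both classes the 3 shUHRF1 libraries lay below the 3 scramble libraries in each line. The sum over other classes overlapped between the groups, at 804 to 812 CPM with the scramble and 810 to 867 CPM with shUHRF1 in TE10 and at 813 to 845 and 825 to 867 CPM in Kyse410. Each sum is dominated by its few abundant genes. With 3 libraries against 3, an exact permutation test of a sum cannot give a p under 0.10, and none was run.

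Among the fibrillar chains, COL5A1 carried most of the class. In TE10 it was read at 714, 692 and 719 CPM with the scramble and at 334, 331 and 322 CPM with shUHRF1. Kyse410 libraries read it at 897, 884 and 901 CPM with the scramble and at 731, 686 and 701 CPM with shUHRF1. In both lines the groups were far apart compared with the spread within them. Its log2 fold change was −1.11 ± 0.0366 in TE10 (edgeR adjusted p = 8.16e-31) and −0.34 ± 0.0341 in Kyse410 (2.99e-12), and the fall was smaller in Kyse410 by 0.76 ± 0.05 (2.99e-18).

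COL5A3, which can join type V trimers, showed the widest change of all members. With the scramble it was read at 16.4, 17.6 and 14.6 CPM in TE10 and at 3.33, 2.65 and 3.22 CPM in Kyse410. With shUHRF1 it was read at 1.15, 0.767 and 0.531 CPM in TE10 and at 1.28, 0.737 and 0.651 CPM in Kyse410. The scramble levels of the lines were far apart and the shUHRF1 levels overlapped, with as few as 4 reads in a library. The log2 fold change was −4.28 ± 0.258 in TE10, a 19.5-fold fall (edgeR adjusted p = 7.03e-20), and −1.77 ± 0.297 in Kyse410, a 3.41-fold fall (1.48e-06). The responses differed by 2.51 ± 0.471 (1.9e-05). An antisense gene overlaps 4% of the exon bases of COL5A3, and the strand setting of the counts is not given in the sources used here.

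COL27A1, a fibrillar chain known from cartilage, fell in both lines. In TE10 it went from 34.9, 35.9 and 33.9 CPM with the scramble to 16.4, 14.8 and 15.8 CPM with shUHRF1. In Kyse410 it went from 48.3, 48.9 and 49.7 CPM to 23.9, 22.9 and 24.0 CPM. The groups did not overlap in either line, and the log2 fold changes were −1.15 ± 0.0954 and −1.06 ± 0.0781 (edgeR adjusted p = 1.02e-14 and 9.99e-17). The difference between the responses was 0.10 ± 0.125 and did not pass.

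The other tested fibrillar members, COL1A1 and COL11A2, rose where they were called. COL1A1 rose from 42.8 ± 0.865 to 51.2 ± 3.51 CPM in TE10 (log2 0.26 ± 0.0717) and from 114 ± 6.04 to 154 ± 7.02 CPM in Kyse410 (0.43 ± 0.0514), beside the 2 reads of COL1A2 over all libraries. The difference between these responses was 0.17 ± 0.0883 and did not pass, though it did without Kyse410 shUHRF1 replicate 2 (0.23). COL11A2, a chain of type XI, was read at 1.16, 0.713 and 2.33 CPM in TE10 with the scramble and at 2.80, 1.92 and 3.32 CPM with shUHRF1. These groups overlapped. Its rise of 0.89 ± 0.345 in TE10 (edgeR adjusted p = 0.0362) rested on few reads. The call ended without shUHRF1 replicate 1 (0.88, edgeR adjusted p = 0.0734) or 3 (0.71, 0.163), without scramble replicate 1 (0.77, 0.112) or 2 (0.57, 0.226), and with DESeq2 (0.93, 0.0503), and without scramble replicate 3 the value was 1.51. The value in Kyse410, 0.31 ± 0.266, did not pass.

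**Figure D3:**
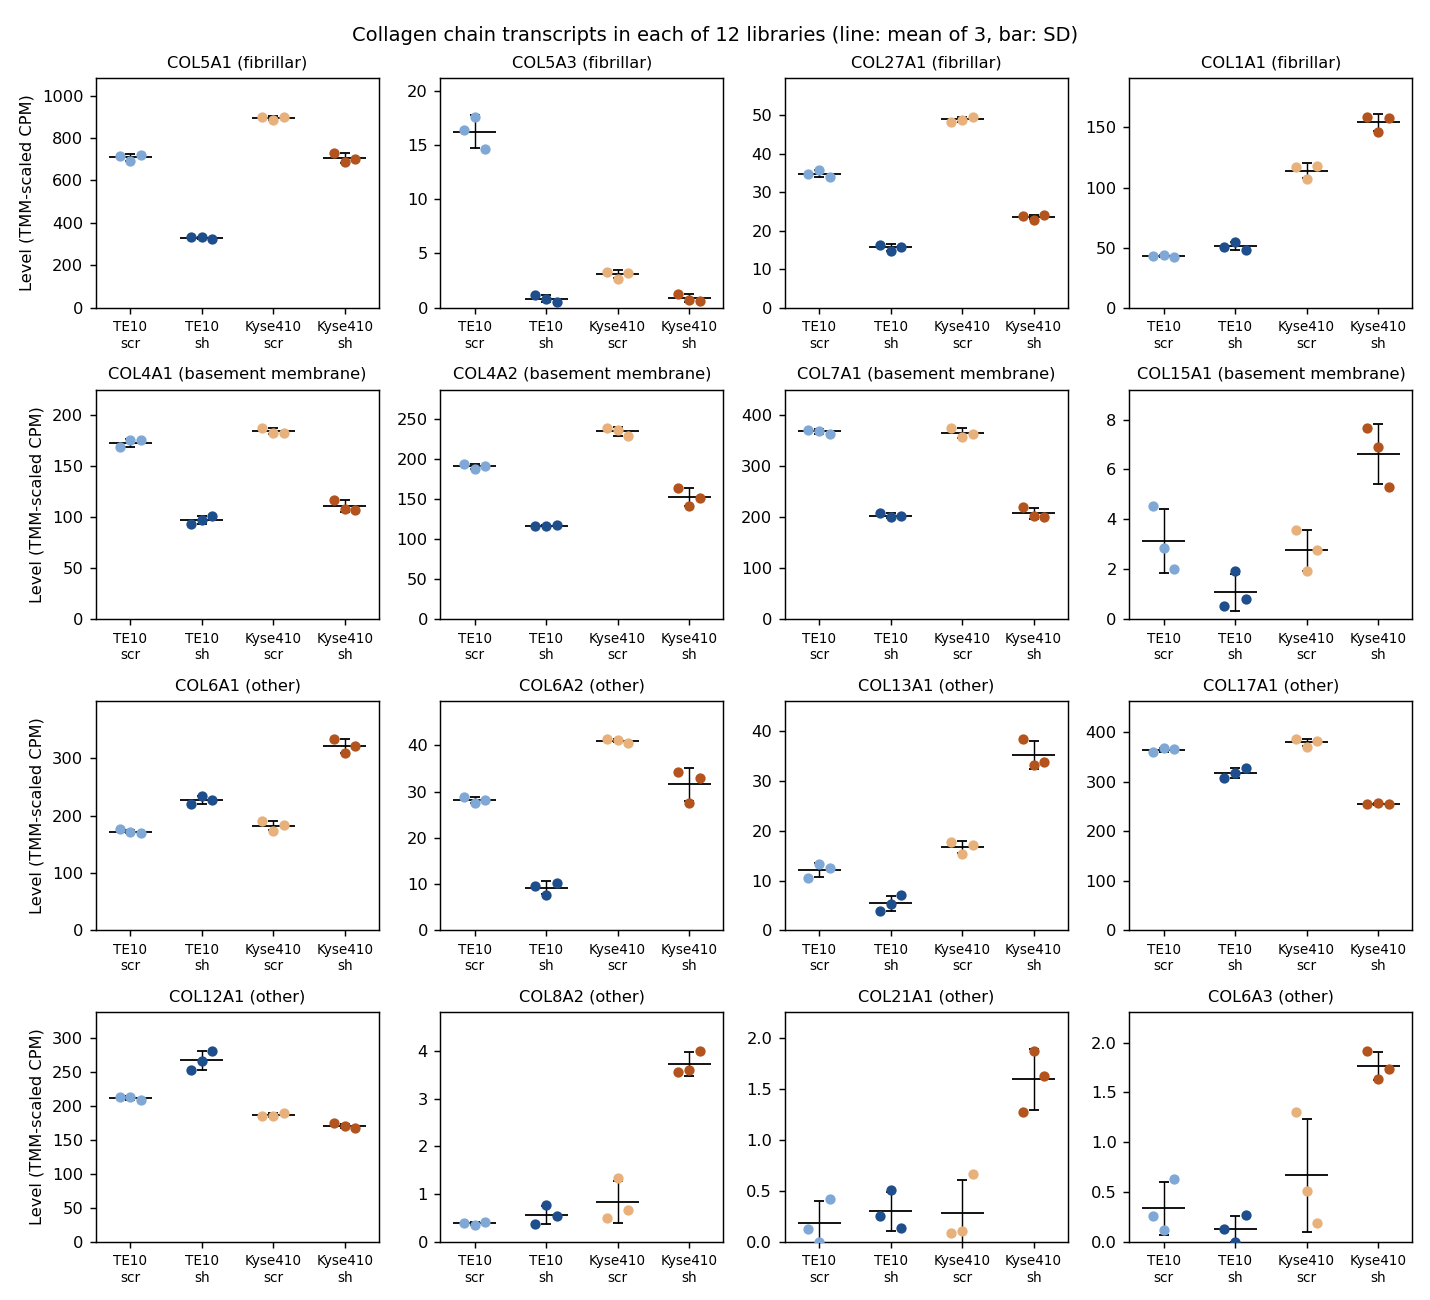
Level of 16 collagen chain genes in each of the 12 libraries, in TMM-scaled CPM on linear axes that start at 0, with the mean of 3 libraries as a line and the SD as a bar; scr is the scramble control and sh is shUHRF1. COL5A1, COL4A1, COL4A2 and COL7A1 are lower with shUHRF1 in both lines, COL6A1 is higher while COL6A2 is lower, and COL13A1 and COL15A1 are lower in TE10 and higher in Kyse410.

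The type IV chains, which build the basement membrane network, fell in both lines for 4 of the 4 tested members. COL4A1 fell from 173 ± 4.10 to 97.1 ± 3.59 CPM in TE10 (log2 −0.83 ± 0.0501) and from 184 ± 3.05 to 111 ± 5.04 CPM in Kyse410 (−0.73 ± 0.0462). COL4A2 fell from 191 ± 2.78 to 117 ± 0.637 CPM in TE10 (−0.71 ± 0.0494) and from 234 ± 5.03 to 153 ± 11.2 CPM in Kyse410 (−0.62 ± 0.0448). These chains combine in the common type IV trimer, and their genes share the CG-dense window shown above. The responses of COL4A1 and COL4A2 differed between the lines by 0.10 ± 0.0684 and 0.09 ± 0.0668 and did not pass, except that COL4A2 passed without Kyse410 shUHRF1 replicate 2 (0.17). The ratio of COL4A1 to COL4A2 per kilobase was 1.18 ± 0.0473 with the scramble and 1.09 ± 0.0351 with shUHRF1 in TE10, and 1.03 ± 0.0153 and 0.951 ± 0.0422 in Kyse410.

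The second head-to-head pair responded more in TE10 than in Kyse410. COL4A5 fell from 154 ± 0.977 to 114 ± 3.22 CPM in TE10 (log2 −0.43 ± 0.0472) and from 236 ± 5.08 to 215 ± 3.97 CPM in Kyse410 (−0.14 ± 0.0406). COL4A6 fell from 171 ± 5.46 to 102 ± 3.24 CPM in TE10 (−0.74 ± 0.0503). In Kyse410 it was at 153 ± 5.40 CPM with the scramble and 141 ± 5.38 CPM with shUHRF1 (−0.12 ± 0.0462, edgeR adjusted p = 0.0307). That call was lost with DESeq2, with RLE scaling, with library totals, without the low-count filter, with the Kyse410 libraries alone, and without shUHRF1 replicate 2 or 3 or scramble replicate 1, at −0.09 to −0.11. The responses differed by 0.29 ± 0.0623 for COL4A5 and 0.62 ± 0.0684 for COL4A6 (edgeR adjusted p = 0.000153 and 1.26e-10). The ratio of COL4A5 to COL4A6 per kilobase was 0.706 ± 0.019 with the scramble and 0.875 ± 0.0509 with shUHRF1 in TE10, with no overlap of libraries, and 1.2 ± 0.0493 and 1.19 ± 0.0265 in Kyse410.

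COL7A1, the anchoring fibril collagen, had close levels in both lines and fell in both. It was read at 371, 369 and 362 CPM in TE10 and at 374, 356 and 362 CPM in Kyse410 with the scramble. With shUHRF1 it was read at 207, 199 and 202 CPM in TE10 and at 219, 202 and 199 CPM in Kyse410. The log2 fold changes were −0.86 ± 0.0419 and −0.81 ± 0.0402 (edgeR adjusted p = 1.45e-23 and 1.2e-23), with a difference of 0.04 ± 0.058 that did not pass. COL18A1, whose C-terminal fragment is endostatin, fell from 115 ± 7.92 to 73.6 ± 4.92 CPM in TE10 (−0.64 ± 0.0597) and from 175 ± 7.59 to 131 ± 5.65 CPM in Kyse410 (−0.41 ± 0.0502). The difference of 0.23 ± 0.0782 passed (edgeR adjusted p = 0.0184), but not without TE10 shUHRF1 replicate 2 (0.17), TE10 scramble replicate 3 (0.18) or Kyse410 scramble replicate 3 (0.20). On the opposite strand, SLC19A1 overlaps 16.4% of the exon bases of COL18A1. How reads there were counted depends on settings that are not stated, so the level of COL18A1 may be too low or too high.

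COL15A1, the other member of the multiplexin family, changed in opposite directions. In TE10 it was read at 4.52, 2.85 and 2.01 CPM with the scramble and at 0.509, 1.92 and 0.796 CPM with shUHRF1. Kyse410 libraries held 3.58, 1.94 and 2.75 CPM with the scramble and at 7.66, 6.88 and 5.31 CPM with shUHRF1. The groups did not overlap in either line, although in TE10 the nearest libraries were close. It fell by 1.5 ± 0.381 on the log2 scale in TE10 (edgeR adjusted p = 0.00121; −2.22 without shUHRF1 replicate 2) and rose by 1.25 ± 0.251 in Kyse410 (3.7e-05). The difference of 2.75 ± 0.454 passed (1.91e-06) and was 3.46 without TE10 shUHRF1 replicate 2.

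Type VI collagen is built from a COL6A1, a COL6A2 and a further chain, most often COL6A3, and its genes moved apart. COL6A1 was read at 176, 171 and 170 CPM in TE10 and at 190, 174 and 183 CPM in Kyse410 with the scramble. With shUHRF1 it was read at 221, 234 and 227 CPM in TE10 and at 333, 309 and 321 CPM in Kyse410. It rose by 0.40 ± 0.0449 in TE10 and by 0.81 ± 0.0418 in Kyse410 on the log2 scale (edgeR adjusted p = 1.89e-10 and 6.03e-23), more so in Kyse410 by 0.42 ± 0.0614 (1.79e-07).

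COL6A2 fell where COL6A1 rose. It was read at 28.8, 27.6 and 28.1 CPM in TE10 and at 41.3, 41.2 and 40.6 CPM in Kyse410 with the scramble. With shUHRF1 it was read at 9.67, 7.67 and 10.3 CPM in TE10 and at 34.2, 27.5 and 33.0 CPM in Kyse410. The log2 fold change was −1.61 ± 0.119 in TE10 and −0.38 ± 0.0839 in Kyse410 (edgeR adjusted p = 2.03e-16 and 0.000128), with a difference of 1.22 ± 0.148 (1.44e-09). Per kilobase, COL6A1 exceeded COL6A2 by a factor of 6.18 ± 0.0737 with the scramble and 25.3 ± 4.73 with shUHRF1 in TE10. In Kyse410 the factor was 4.48 ± 0.203 with the scramble and 10.3 ± 0.86 with shUHRF1. In each line the 3 shUHRF1 libraries lay above the 3 scramble libraries.

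COL6A3 was barely read, with 0 to 21 reads in a library. Its level in Kyse410 was 1.30, 0.510 and 0.189 CPM with the scramble and 1.92, 1.64 and 1.74 CPM with shUHRF1, a log2 fold change of 1.32 ± 0.451 (edgeR adjusted p = 0.0126). The call ended without scramble replicate 2 (1.16) or 3 (0.90) and with DESeq2 (1.39, adjusted p = 0.0568), and the value was 2.31 without scramble replicate 1. In TE10 it had 9 reads over the scramble libraries and 3 over the shUHRF1 libraries, so the scramble level was 2.77 times as high (95% interval from counting error 0.69 to 15.9). The difference between the lines, 2.67 ± 1.11, had an edgeR adjusted p of 0.0499. It was lost with DESeq2 (2.78), with RLE scaling (2.66), and without any 1 of 9 of the 12 libraries, at 1.80 without TE10 scramble replicate 3. It was 3.57 without TE10 shUHRF1 replicate 3 and 3.66 without Kyse410 scramble replicate 1.

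The transmembrane collagens differed from each other. COL13A1, found at focal adhesions and the neuromuscular junction, was read at 10.5, 13.4 and 12.5 CPM in TE10 with the scramble and at 3.94, 5.37 and 7.03 CPM with shUHRF1. In Kyse410 it was read at 17.8, 15.4 and 17.1 CPM with the scramble and at 38.4, 33.3 and 33.8 CPM with shUHRF1. The groups did not overlap in either line, with a fall in TE10 (log2 −1.16 ± 0.166, edgeR adjusted p = 7.51e-08) and a rise in Kyse410 (1.06 ± 0.105, 1.78e-12). The responses differed by 2.23 ± 0.195 (1.02e-13).

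COL17A1, the abundant hemidesmosomal chain, fell modestly. It was read at 361, 368 and 366 CPM in TE10 and at 386, 371 and 382 CPM in Kyse410 with the scramble. With shUHRF1 it was read at 307, 319 and 328 CPM in TE10 and at 255, 258 and 255 CPM in Kyse410. Here the larger change was in Kyse410, at −0.57 ± 0.0378 on the log2 scale against −0.20 ± 0.0386 in TE10 (edgeR adjusted p = 1.71e-18 and 2.87e-05), a difference of −0.37 ± 0.054 (1.63e-07). Of the promoter windows, that of COL17A1 was among the poorest in CG, with 1.

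Among the chains associated with fibrils, COL12A1 and COL16A1 were the best measured. COL12A1 rose from 211 ± 2.99 to 267 ± 14.1 CPM in TE10 (log2 0.34 ± 0.043). In Kyse410 it was at 187 ± 2.98 CPM with the scramble and 171 ± 2.81 CPM with shUHRF1 (−0.13 ± 0.043, edgeR adjusted p = 0.0107), a call lost without shUHRF1 replicate 2 (−0.10, 0.0775). The difference between the lines was −0.47 ± 0.0609 (9.67e-09). COL16A1 fell from 9.62 ± 0.854 to 5.27 ± 1.28 CPM in TE10 (−0.87 ± 0.179) and from 14.6 ± 1.17 to 7.93 ± 1.25 CPM in Kyse410 (−0.88 ± 0.142), with a difference of −0.01 ± 0.244.

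COL9A3, a chain of type IX, was read at 6.33, 6.06 and 5.40 CPM in TE10 and at 5.20, 6.02 and 5.02 CPM in Kyse410 with the scramble. With shUHRF1 it was read at 5.47, 5.11 and 3.85 CPM in TE10 and at 10.1, 7.95 and 8.35 CPM in Kyse410. The groups overlapped in TE10 and were apart in Kyse410. It rose in Kyse410 (log2 0.71 ± 0.169, edgeR adjusted p = 0.000413) and did not pass in TE10 (−0.29 ± 0.202), with a difference of 1.0 ± 0.263 (0.00183). The partner chains COL9A1 and COL9A2 were not tested.

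The largest rises in Kyse410 were in genes with few reads. COL21A1, a small fibril-associated chain, was read at 0.0813, 0.102 and 0.663 CPM in Kyse410 with the scramble (1, 1 and 7 reads) and at 1.28, 1.88 and 1.63 CPM with shUHRF1. COL8A2, a network-forming chain of endothelial and corneal basement membranes, was read at 0.488, 1.33 and 0.663 CPM with the scramble and at 3.56, 3.60 and 4.01 CPM with shUHRF1. For both genes the shUHRF1 libraries of Kyse410 lay above the scramble libraries. COL21A1 rose by 2.48 ± 0.559 (edgeR adjusted p = 0.000195; 3.96 without scramble replicate 3) and COL8A2 by 2.19 ± 0.343 (3.53e-07) on the log2 scale. In TE10 COL21A1 was read at 0 to 0.424 CPM with the scramble and 0.133 to 0.511 CPM with shUHRF1, and COL8A2 at 0.357 to 0.424 and 0.382 to 0.767 CPM, and neither passed. The differences between the lines, 1.88 ± 1.22 and 1.69 ± 0.766, did not pass either (edgeR adjusted p = 0.228 and 0.0753), except that COL8A2 passed without Kyse410 scramble replicate 2 (2.17). So these rises are not shown to be particular to Kyse410. COL28A1 did not pass in either line, at −0.66 ± 0.387 and 0.37 ± 0.301.

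The median CG content of the start windows was close for members that rose and fell, but few members that rose had a window. Similarity is therefore not shown. For each gene the first window listed was used. The 14 members that fell in TE10 had a median of 22 CG (range 1 to 46), and the 2 with a window that rose there had a median of 22.5. In Kyse410 the 13 that fell and the 5 with a window that rose each had a median of 22. Among the CG-rich windows were COL18A1 with 46, which fell in both lines, COL8A2 with 45, which rose in Kyse410, and COL15A1 with 45, which did both.

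The genes that modify, process, bind and degrade collagen were described from lists of known partners. The lists were chosen with earlier results of these data known. Their counts are to be read beside the shares of all genes tested. In TE10 18.8% of these rose and 20.0% fell, and in Kyse410 22.6% rose and 26.7% fell. Of 23 tested genes of collagen modification and folding, 8 rose and 7 fell in TE10 and 9 rose and 5 fell in Kyse410, with medians of 0.03 and 0.16. The count of falls in Kyse410 was 2 without shUHRF1 replicate 2 and 3 without scramble replicate 3. P3H2, a prolyl 3-hydroxylase that acts on type IV collagen, fell in Kyse410 from 53.9 ± 1.35 to 19.9 ± 1.40 CPM (log2 −1.43 ± 0.085). CREB3L1, a transcription factor that activates collagen genes, fell in TE10 from 2.60 ± 0.472 to 0.639 ± 0.456 CPM (−1.99 ± 0.473).

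Of 12 tested genes of procollagen processing and cross-linking, 1 rose and 4 fell in TE10, and 6 rose and 0 fell in Kyse410 by edgeR. Beside this, 18.8% of all genes tested rose and 20.0% fell in TE10, and 22.6% rose and 26.7% fell in Kyse410. Among the 12, the count of falls in Kyse410 was also 0 at an unadjusted p under 0.05 and with DESeq2. The one that rose in TE10 was LOXL1, a lysyl oxidase better known for elastin, and it rose in Kyse410 too. It went from 13.4 ± 1.2 to 36.7 ± 1.19 CPM in TE10 and from 14.3 ± 0.408 to 47.2 ± 3.78 CPM in Kyse410 (log2 1.46 ± 0.102 and 1.72 ± 0.0904). LOX, the oxidase that starts collagen cross-linking, fell in TE10 (−1.53 ± 0.237) and was at −0.13 ± 0.176 in Kyse410, a difference of 1.40 ± 0.299 (edgeR adjusted p = 0.000132). The transglutaminase TGM2 fell from 645 ± 12.5 to 258 ± 5.75 CPM in TE10 (−1.32 ± 0.0376) and rose slightly in Kyse410 (0.14 ± 0.0335). PXDN, the peroxidase that cross-links type IV collagen, rose in Kyse410 (1.26 ± 0.26). ADAMTS14, an amino-terminal propeptidase, also rose there (1.31 ± 0.411), a call lost without shUHRF1 replicate 3 (0.98). In TE10 ADAMTS14 was at 1.09 ± 0.872, and its difference between the lines, 0.22 ± 1.25, did not pass. For PXDN the difference of 1.93 ± 0.654 passed, but not without TE10 shUHRF1 replicate 3 (1.54) or TE10 scramble replicate 3 (1.77).

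Of 7 tested collagen receptors, 0 rose and 3 fell in TE10 by edgeR, and 3 rose and 3 fell in Kyse410. Beside this, 18.8% of all genes tested rose and 20.0% fell in TE10, and 22.6% rose and 26.7% fell in Kyse410. No receptor rose in TE10 at an unadjusted p under 0.05 (0) or with DESeq2 (0). The integrin alpha chain ITGA1, which binds type IV collagen, fell in TE10 from 13.5 ± 1.31 to 6.03 ± 0.401 CPM (log2 −1.16 ± 0.148). In Kyse410 it rose from 13.9 ± 0.615 to 18.5 ± 0.411 CPM (0.41 ± 0.111). DDR2, a receptor kinase for fibrillar collagen, fell in Kyse410 (−1.38 ± 0.23), and MRC2, which takes up collagen, rose there (1.31 ± 0.192). ITGA11 also fell in Kyse410 (−1.35 ± 0.546, edgeR adjusted p = 0.0353), but not with DESeq2 (−1.39), without shUHRF1 replicate 1 (−0.89) or 3 (−1.12), or without scramble replicate 3 (−1.35). Without shUHRF1 replicate 2 it was at −2.68. In TE10 ITGA11 was at −1.19 ± 0.553 and DDR2 at −0.34 ± 0.481, and neither passed. The difference between the lines did not pass for ITGA11 (−0.16 ± 0.777) or DDR2 (−1.04 ± 0.552). For MRC2 it did (1.48 ± 0.315).

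Of 5 tested genes listed as collagen-degrading proteases, 1 rose and 1 fell in TE10, and 2 rose and 0 fell in Kyse410 by edgeR. The falls in Kyse410 were also 0 at an unadjusted p under 0.05 and with DESeq2. Beside this, 18.8% of all genes tested rose and 20.0% fell in TE10, and 22.6% rose and 26.7% fell in Kyse410. The listed gene that rose in TE10 was PEPD (log2 0.39 ± 0.102) and not one of the MMP genes. The count of rises in TE10 was 2 without scramble replicate 1, when MMP14 passed as well (1.64). The count of falls there was 2 without the low-count filter. The collagenase MMP1 fell from 82.0 ± 2.72 to 35.5 ± 0.779 CPM in TE10 (log2 −1.21 ± 0.0832) and rose from 8.25 ± 1.03 to 21.9 ± 3.94 CPM in Kyse410 (1.43 ± 0.117), a difference of 2.64 ± 0.143 (edgeR adjusted p = 1.78e-21). MMP14, a membrane-bound collagenase, rose in Kyse410 from 1.17 ± 0.242 to 4.66 ± 0.656 CPM (2.0 ± 0.30). In TE10 it was at 1.08 ± 0.459 and did not pass, and neither did its difference between the lines, 0.92 ± 0.582.

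Of 14 tested matrix proteins and anchoring partners that bind collagen, 3 rose and 9 fell in TE10, and 5 rose and 6 fell in Kyse410. Beside this, 18.8% of all genes tested rose and 20.0% fell in TE10, and 22.6% rose and 26.7% fell in Kyse410. SPARC, a secreted collagen-binding glycoprotein, went from 107 ± 1.40 to 7.49 ± 0.847 CPM in TE10 and from 75.8 ± 6.16 to 22.3 ± 0.926 CPM in Kyse410 (log2 −3.83 ± 0.0949 and −1.76 ± 0.0735). NID1, which links type IV collagen to laminin, fell in TE10 (−1.49 ± 0.267) and rose in Kyse410 (0.96 ± 0.268), as COL15A1 did. Fibronectin (FN1) fell by 0.97 and 1.17 and thrombospondin (THBS1) by 0.99 and 1.90 in TE10 and Kyse410 on the log2 scale.

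**Figure D4:**
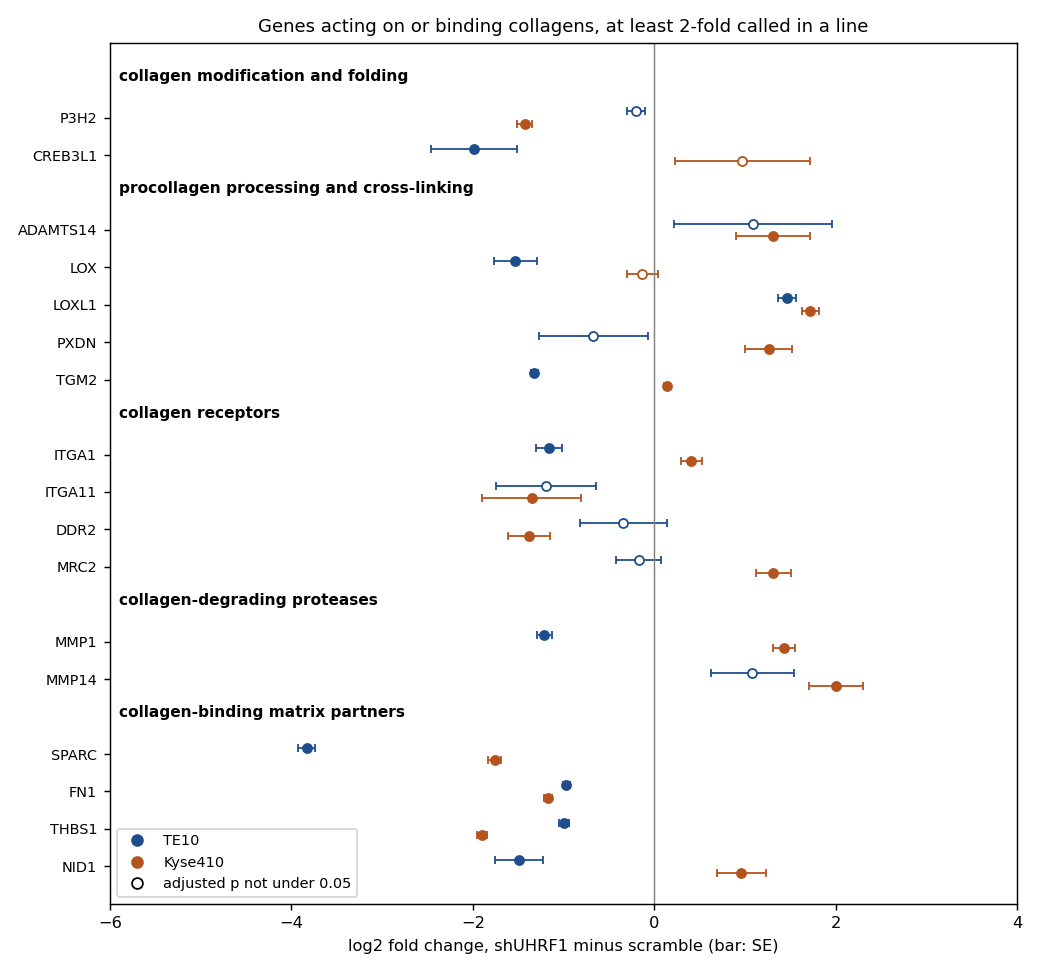
Log2 fold change with SE, shUHRF1 minus scramble, in TE10 (blue) and Kyse410 (brown) for the 17 partner genes called with at least a 2-fold change in a line, grouped by role; open circles did not reach an adjusted p under 0.05. LOXL1 lies right of 0 and SPARC, FN1 and THBS1 left of 0 in both lines, while MMP1, ITGA1, TGM2 and NID1 lie on opposite sides.

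Some genes used as markers of other cell types also changed with shUHRF1, in both directions. The summed level of 8 fibroblast markers was 7.09 to 9.15 CPM with the scramble and 3.05 to 4.38 CPM with shUHRF1 in TE10, and 30.1 to 31.8 and 21.7 to 23.4 CPM in Kyse410. It was carried by ACTA2 and PDGFRB, the only 2 that were tested, and both fell in both lines. Of 6 endothelial markers, 5 were matched, and their sum was 7.62 to 11.5 and 12.5 to 15.8 CPM in TE10 and 25.1 to 25.5 and 92.5 to 106 CPM in Kyse410. It was carried by CDH5, which rose in both lines. The 6 blood markers summed to at most 1.31 CPM in any library. The summed squamous markers were 1218 to 1246 CPM with the scramble and 969 to 1030 CPM with shUHRF1 in TE10, and 642 to 661 and 835 to 864 CPM in Kyse410. Single squamous markers moved both ways in each line. Over all genes tested, 20.0% fell and 18.8% rose in TE10, and 26.7% fell and 22.6% rose in Kyse410. In TE10, 6 fell, among them KRT5 (log2 −3.06) and KRT14 (−2.28), and 2 rose, CDH1 (1.2) and EPCAM (0.73). In Kyse410, 5 rose, among them SFN (0.65) and CDH1 (0.79), and 2 fell, KRT14 (−1.79) and KRT17 (−0.98). The part of these shifts in the collagen results was not tested.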

How the data were processed

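Polyadenylated RNA of 12 libraries (2 lines, shUHRF1 and scramble, 3 libraries each) was measured. The authors deposited raw counts of reads per gene. Per the submitters' processing notes, bcl2fastq 2.19, HISAT2 2.1.0, HTSeq 0.9.1, DESeq2 and build GRCh37.p13 were used; their order, the settings, the annotation release and the strandedness are not stated in any source used here. The closing counters of each file were left out (no-feature reads were 42.88 to 44.66% of a library).

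Identifiers were matched to symbols and exon lengths in GENCODE 29, which is of another build, so only names, lengths and overlaps were used (52339 of 57820 identifiers, 99.03% of gene reads); UHRF1 was named by hand from ENSG00000034063. Counts were filtered with filterByExpr, scaled by TMM and fitted with edgeR 4.0.16 (quasi-likelihood) and limma 3.58.1 in R 4.3.3, as 1 fit of all 12 libraries with 8 residual degrees of freedom. Contrasts were shUHRF1 minus scramble in each line, their difference, and Kyse410 minus TE10 in scramble controls, adjusted by Benjamini-Hochberg over 16060 genes at 0.05. The SE is the log2 fold change over the root of F. The steps were tested on simulated data.

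The members and lists were chosen with earlier results of these data known. Values in every library were given for members called with an absolute log2 change of at least 1 in a knockdown contrast or in the difference between lines (3 between scramble controls) and for the 3 highest per kilobase of exon in each line; partner genes were named at an absolute log2 change of at least 1 in a knockdown contrast. Alternatives were DESeq2 1.42.0, RLE scaling, library totals, no filter, a replicate block, only the libraries compared, and leaving out each library. Libraries of a group differed beyond counting noise (chi-square per degree of freedom 1.57 to 2.92). Intervals from reads cover counting error only. Python 3.11.15, pandas 2.3.3, numpy 2.4.6 and matplotlib 3.10.9 made tables and plots.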

Additional observations from a re-analysis of the deposited data

Results flagged for a closer look

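The response to shUHRF1 passed edgeR's test of a difference between Kyse410 and TE10 for 13 of the 23 tested collagen genes. It was higher in Kyse410 for 11 of them, against 19.0% of all genes tested, and lower for 2, against 19.9%. Values are the log2 response in Kyse410 minus that in TE10. The difference was 2.75 for COL15A1, 2.67 for COL6A3, 2.51 for COL5A3, 2.23 for COL13A1, 1.22 for COL6A2 and 1.0 for COL9A3. It was 0.76 for COL5A1, 0.62 for COL4A6, 0.42 for COL6A1, 0.29 for COL4A5 and 0.23 for COL18A1. The difference of COL6A3 rests on few reads: it had an edgeR adjusted p of 0.0499, was lost with DESeq2, with RLE scaling and without any 1 of 9 of the 12 libraries, and ranged from 1.80 to 3.66 as libraries were left out. That of COL15A1 was 3.46 without TE10 shUHRF1 replicate 2, and that of COL18A1 was lost without any 1 of 3 libraries, at 0.17 to 0.20. The difference was negative for COL12A1 (−0.47) and COL17A1 (−0.37). COL13A1 and COL15A1 fell in TE10 and rose in Kyse410, COL12A1 rose in TE10 and fell in Kyse410, and the others moved in 1 direction in both lines or passed in 1 line alone.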

How the results depend on the processing

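No called result changed direction under any alternative run. COL7A1, at −0.01 and not called between the scramble controls, was at 0.08 and called with library totals (edgeR adjusted p = 0.0469). The counts of collagen genes called stayed within 1.5 times their value in all but 1 case: with library totals in place of TMM, 1 in place of 3 genes was lower in Kyse410 than in TE10 among scramble controls. In that comparison 13 genes were higher with DESeq2, with RLE scaling or with the scramble libraries alone, and 14 with library totals, against 10. The counts over all genes tested moved too. With library totals 6532 were higher and 5307 lower, against 5886 and 5953 with TMM, and their median log2 difference was 0.09. Those higher numbered 5792 with DESeq2, 6086 with RLE scaling and 5894 of 15381 with the scramble libraries alone. Among the collagen genes, COL17A1, COL6A1 and COL4A1 passed in each of these runs. Leaving out 1 library at a time gave 3 to 4 rises and 14 to 15 falls in TE10, 7 to 8 rises and 11 to 13 falls in Kyse410, 9 to 12 higher and 2 lower responses in Kyse410, and 9 to 11 higher and 3 to 4 lower levels between the scramble controls.

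With the replicate number as a block, the counts were 4 rises and 14 falls in TE10 and 8 rises and 13 falls in Kyse410, the same as without it. Whether the replicate numbers pair the libraries is not stated in the labels. Deviations from group means correlated at −0.005 to 0.037 for libraries with the same number and at −0.058 to 0.033 for other numbers. Deviations of single libraries hold counting noise, so these values cannot settle whether the libraries were paired. Genes under 50 reads in every library, such as COL6A3, COL11A2 and COL21A1, have wide errors, and the knockdown left UHRF1 RNA in both lines.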
